A study of Homo sapiens with 4 samples.

Results

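In K562 cells, 1653 of the 38626 H3K27ac peaks called without drug (4.28%, 95% Wilson interval 4.08 to 4.49) each lay over 2 or more peaks called after daunorubicin. These are referred to as split peaks. They were chosen by the measured peak positions themselves: a single untreated peak counted if at least 2 daunorubicin peaks overlapped it by 1 bp or more. The reverse case, 1 daunorubicin peak over 2 or more untreated peaks, held for 1185 of 65118 daunorubicin peaks (1.82%, 1.72 to 1.93), which are referred to as bridging peaks. Counted only among peaks that the other list overlapped, the shares were closer, 4.79% of 34486 untreated and 3.39% of 34968 daunorubicin peaks. Whether a peak is split, into how many pieces and by how wide a gap was therefore used by the rule and is given as a description. Gene positions and sequences were not used, but the rule places every gap inside its peak, between 2 called pieces.

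K562 is a human line from chronic myeloid leukaemia in blast crisis that carries the BCR-ABL1 fusion. The 2 H3K27ac libraries came from cells kept with 1 uM daunorubicin for 18 h and from untreated cells of the same line, and each condition had 1 input library without antibody. There was 1 library per condition, so no comparison has a replicate check, no test between conditions was made, and the intervals cover counting error only. Depth is unknown, and the score of each peak is the authors' own value. Whether the scores of the 2 lists share a scale is unknown. Scores of a peak and of its pieces in the other list are therefore set side by side only as a description. As a check of the label, 9 of 10 erythroid and megakaryocytic markers fixed for K562 had a peak at a gene end in both lists (HBE1 had none), against 2 of 5 B and T cell genes and 1 of 4 monocyte and granulocyte genes. Of 4 epithelial and liver genes, 3 had such a peak without drug and 4 with it, and the part of other cell types in the results was not tested.

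H3K27ac, acetylation of lysine 27 on histone H3, is placed mainly by the acetyltransferases p300 and CBP on nucleosomes of active promoters and enhancers. At an active promoter the nucleosomes on either side of the start carry the mark, while the stretch just upstream of the start, where general and sequence-specific factors bind, is depleted of nucleosomes and shows as a dip between shoulders of signal. Daunorubicin is an anthracycline that intercalates into DNA, poisons topoisomerase II and can evict histones from open chromatin.

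The sequences below show where the gaps fell at 8 promoters of split peaks and at 2 promoters of bridging peaks, the latter for contrast. Each is the RefSeq promoter window of GRCh38.p14, from 250 bases before to 50 bases after the annotated start, read 5′ to 3′ on the gene's strand. Capitals mark the bases inside the gap, and lower case marks bases under one of the flanking peaks or beyond the gap's edge. The windows were picked after their values were seen, as genes of different roles. They were drawn only from starts that lay in a gap, so each gap covers its start by choice. JUN (chr1:58783998-58784297, minus strand) and KLF6 (chr10:3785160-3785459, minus strand) are immediate early transcription factor genes. BTG2 (chr1:203305269-203305568, plus strand) is an antiproliferative gene and PPM1D (chr17:60599943-60600242, plus strand) a phosphatase that turns off damage signalling. NQO1 (chr16:69726511-69726810, minus strand) is a quinone reductase, HSPA5 (chr9:125241294-125241593, minus strand) the chaperone BiP of the endoplasmic reticulum, LYL1 (chr19:13102809-13103108, minus strand) a blood transcription factor and NADK2 (chr5:36242230-36242529, minus strand) the mitochondrial NAD kinase. HNRNPLL (chr2:38602879-38603178, minus strand), a splicing regulator, and NSD2 (chr4:1871143-1871442, plus strand), a histone H3 lysine 36 methyltransferase, belong to bridging peaks.
JUN: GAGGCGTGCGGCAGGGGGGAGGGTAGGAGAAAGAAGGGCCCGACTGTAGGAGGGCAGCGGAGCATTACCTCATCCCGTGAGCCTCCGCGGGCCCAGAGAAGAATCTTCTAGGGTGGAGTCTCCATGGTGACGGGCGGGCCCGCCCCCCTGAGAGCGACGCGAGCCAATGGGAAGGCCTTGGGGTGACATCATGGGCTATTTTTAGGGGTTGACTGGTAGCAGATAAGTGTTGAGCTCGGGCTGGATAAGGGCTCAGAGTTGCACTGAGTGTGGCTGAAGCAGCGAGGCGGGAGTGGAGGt
KLF6: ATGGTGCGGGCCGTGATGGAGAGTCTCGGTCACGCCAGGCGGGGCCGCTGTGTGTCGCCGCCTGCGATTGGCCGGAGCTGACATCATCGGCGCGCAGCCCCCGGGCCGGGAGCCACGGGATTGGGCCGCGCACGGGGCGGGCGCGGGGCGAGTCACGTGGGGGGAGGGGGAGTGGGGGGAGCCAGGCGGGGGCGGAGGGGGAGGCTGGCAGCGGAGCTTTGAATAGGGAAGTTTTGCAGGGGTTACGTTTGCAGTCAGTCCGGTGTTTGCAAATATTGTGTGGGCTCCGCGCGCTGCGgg
BTG2: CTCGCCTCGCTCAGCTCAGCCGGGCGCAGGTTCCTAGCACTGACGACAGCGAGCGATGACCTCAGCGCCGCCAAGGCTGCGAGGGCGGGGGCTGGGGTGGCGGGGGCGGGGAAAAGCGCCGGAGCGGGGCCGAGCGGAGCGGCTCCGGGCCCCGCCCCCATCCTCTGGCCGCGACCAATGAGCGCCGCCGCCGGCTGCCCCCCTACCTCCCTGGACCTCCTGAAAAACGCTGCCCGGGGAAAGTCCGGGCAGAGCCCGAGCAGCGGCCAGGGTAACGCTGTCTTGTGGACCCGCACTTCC
PPM1D: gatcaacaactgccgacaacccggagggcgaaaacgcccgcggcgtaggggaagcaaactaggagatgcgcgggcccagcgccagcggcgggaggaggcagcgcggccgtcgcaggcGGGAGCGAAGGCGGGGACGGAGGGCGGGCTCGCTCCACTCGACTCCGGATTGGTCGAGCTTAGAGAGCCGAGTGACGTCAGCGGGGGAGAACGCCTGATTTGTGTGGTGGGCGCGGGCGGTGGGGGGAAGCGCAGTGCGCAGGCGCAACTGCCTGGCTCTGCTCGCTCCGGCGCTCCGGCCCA
NQO1: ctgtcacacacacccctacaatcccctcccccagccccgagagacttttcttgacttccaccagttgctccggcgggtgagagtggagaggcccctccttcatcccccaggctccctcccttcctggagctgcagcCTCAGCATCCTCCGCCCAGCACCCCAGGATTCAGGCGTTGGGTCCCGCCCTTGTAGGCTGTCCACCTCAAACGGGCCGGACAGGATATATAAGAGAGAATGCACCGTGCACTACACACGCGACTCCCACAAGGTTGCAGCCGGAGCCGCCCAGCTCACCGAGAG
HSPA5: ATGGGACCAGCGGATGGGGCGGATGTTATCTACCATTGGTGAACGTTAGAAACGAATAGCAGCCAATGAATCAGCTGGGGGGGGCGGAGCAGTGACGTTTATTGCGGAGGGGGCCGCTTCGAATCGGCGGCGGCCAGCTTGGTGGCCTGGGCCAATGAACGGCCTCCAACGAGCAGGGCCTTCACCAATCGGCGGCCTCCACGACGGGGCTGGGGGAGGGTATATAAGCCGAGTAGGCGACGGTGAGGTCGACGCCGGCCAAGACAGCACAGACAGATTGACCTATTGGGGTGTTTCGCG
LYL1: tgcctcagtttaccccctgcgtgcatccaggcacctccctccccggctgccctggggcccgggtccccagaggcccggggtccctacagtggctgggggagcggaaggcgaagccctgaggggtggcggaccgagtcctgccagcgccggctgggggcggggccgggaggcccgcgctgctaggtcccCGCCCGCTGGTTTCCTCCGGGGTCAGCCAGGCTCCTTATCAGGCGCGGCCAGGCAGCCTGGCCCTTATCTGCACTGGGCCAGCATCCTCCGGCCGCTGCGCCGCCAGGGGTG
NADK2: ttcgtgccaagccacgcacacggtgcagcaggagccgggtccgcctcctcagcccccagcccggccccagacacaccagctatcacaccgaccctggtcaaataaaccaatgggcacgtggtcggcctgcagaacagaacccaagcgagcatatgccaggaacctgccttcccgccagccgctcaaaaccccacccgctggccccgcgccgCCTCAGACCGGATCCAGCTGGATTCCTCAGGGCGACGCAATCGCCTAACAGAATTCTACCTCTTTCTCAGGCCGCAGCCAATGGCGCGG
HNRNPLL: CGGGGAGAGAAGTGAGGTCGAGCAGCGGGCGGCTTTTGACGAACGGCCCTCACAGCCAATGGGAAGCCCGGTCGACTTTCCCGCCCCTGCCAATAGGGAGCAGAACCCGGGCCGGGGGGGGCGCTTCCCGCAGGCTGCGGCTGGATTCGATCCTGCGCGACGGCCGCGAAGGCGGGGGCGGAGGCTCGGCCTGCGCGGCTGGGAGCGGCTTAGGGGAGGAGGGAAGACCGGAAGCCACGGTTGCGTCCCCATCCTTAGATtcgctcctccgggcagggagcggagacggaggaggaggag
NSD2: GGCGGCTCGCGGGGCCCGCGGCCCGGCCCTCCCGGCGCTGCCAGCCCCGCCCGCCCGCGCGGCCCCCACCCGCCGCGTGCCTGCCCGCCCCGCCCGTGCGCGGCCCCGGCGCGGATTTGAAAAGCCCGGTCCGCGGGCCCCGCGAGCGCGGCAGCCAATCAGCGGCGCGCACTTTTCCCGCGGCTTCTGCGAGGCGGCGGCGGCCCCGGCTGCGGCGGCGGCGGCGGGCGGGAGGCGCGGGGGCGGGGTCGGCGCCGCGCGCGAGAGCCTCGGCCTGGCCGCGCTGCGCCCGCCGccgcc

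In the JUN window 299 of 300 bases lay in the gap, and in the KLF6 window 298. The BTG2 and HSPA5 windows lay in their gaps whole, with all 300 bases. At LYL1 the gap took 112 bases of the window and at NADK2 89, in both with some bases just before the start. The gap of PPM1D took 183 bases of its window and that of NQO1 164.

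The pieces were few and the gaps narrow. Of the split peaks, 1604 lay over 2 daunorubicin peaks, 47 over 3 and 2 over 4, which gave 3357 pieces and 1704 gaps. Gaps had a median width of 277 bp (quartiles 249 and 328, range 229 to 1388) and took a median of 17.5% of the peak. The 1222 gaps of bridging peaks had a median of 401 bp (quartiles 344 and 508, range 305 to 1789) and took 24.8%. Gaps of 500 bp or more made up 6.28% of those in split peaks and 26.7% of those in bridging peaks.

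These widths are bounded by the peak lists. Neighbouring peaks came no closer than 305 bp in the untreated list and 229 bp in the daunorubicin list, and the narrowest peak was 239 bp in the first and 208 bp in the second. Of the gaps in split peaks, 1119 of 1704 (65.7%) were narrower than any gap of the untreated list. When peaks at most 304 bp apart were joined in both lists, an alternative added after seeing the data, 578 untreated peaks were split and 1550 daunorubicin peaks were bridging, and the ratio of the shares of their lists turned from 2.35 to 0.596. With the 38626 highest-scoring peaks of each list it was 0.969. Which case is the more frequent thus depended on these settings, and how each list came to its smallest gap is not stated in the labels or notes.

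**Figure D1:**
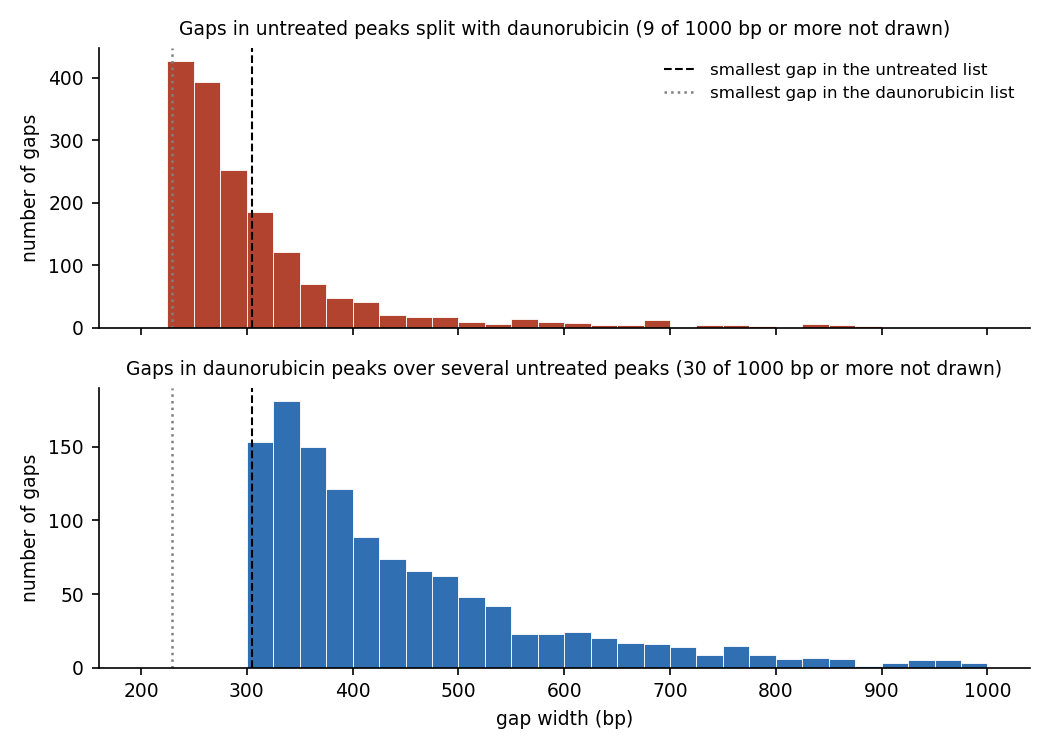
Widths of the gaps (x axis, bp, in 25 bp steps) against the number of gaps (y axis) in split untreated peaks (upper panel) and in daunorubicin peaks over several untreated peaks (lower panel), with the smallest gap of each list as a vertical line. Most gaps in split peaks, 1119 of 1704, lie to the left of the dashed line at 305 bp, where the untreated list has no gap.

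Split peaks were wide and high within their list. Their median width was 1732 bp, against 849 bp for the 32833 untreated peaks over exactly 1 daunorubicin peak, and their median score was 118, against 48. Bridging peaks were wide as well, at 1802 bp against 1073 bp for the 33783 daunorubicin peaks over exactly 1 untreated peak, but their median score of 71 was close to the 74 of those others. The share of overlapped peaks that were split went from 0.837% at widths up to 1000 bp to 38.3% above 2500 bp, and that of bridging peaks from 0.411% to 22.2%. In the split peaks the higher piece had a median score of 120 and the lower piece 46, with median widths of 1040 bp for the widest and 457 bp for the narrowest piece. For bridging peaks the higher untreated piece had a median score of 45 and the lower 23, in a list with a median of 43 and a lowest score of 10.

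A few peaks sat at the edge of the rule. In 51 split peaks a piece reached less than 50 bp into the untreated peak, with 1 bp as the smallest overlap. Just outside it, 45 untreated peaks over exactly 1 daunorubicin peak had a second one within 50 bp of their edge, the nearest at 1 bp. Only 1 split peak and 1 bridging peak overlapped a peak of the daunorubicin input, and the same number overlapped one of the untreated input.

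Split peaks lay mostly at genes' ends, and bridging peaks mostly did not. A gene end is either annotated end of any RefSeq gene, and a peak within 1 kb of one counted. Of the split peaks 1133 (68.5%, 66.3 to 70.7) were at a gene end, 366 lay elsewhere in a gene body and 154 were intergenic. Of the untreated peaks over exactly 1 daunorubicin peak, 38.4% (37.8 to 38.9) were at a gene end. Bridging peaks stood on the other side of their list: 307 of 1185 (25.9%, 23.5 to 28.5) had a gene end within 1 kb, 617 lay inside a gene and 261 outside genes, against 42.7% (42.1 to 43.2) at a gene end for daunorubicin peaks over exactly 1 untreated peak.

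Part of the first difference went with width. Among untreated peaks of 1501 to 2000 bp, 76.6% (72.9 to 79.9) of split and 68.1% (66.7 to 69.5) of unsplit peaks were at a gene end, and among those of 2001 to 2500 bp 83.4% (79.1 to 87.0) and 73.7% (71.2 to 76.1). At 1001 to 1500 bp the shares were 56.3% (51.3 to 61.1) and 51.9% (50.8 to 53.02), at up to 1000 bp 21.5% (15.9 to 28.4) and 23.6% (22.98 to 24.2), and above 2500 bp 82.8% (77.0 to 87.3) and 76.1% (71.2 to 80.4). In these last 3 classes the intervals overlapped. Peaks were not matched by score within a class. Bridging peaks were less often at a gene end in all 5 classes, for example 25.6% (21.6 to 30.2) against 57.0% (55.7 to 58.3) at 1501 to 2000 bp, and in none of the 5 did the intervals overlap.

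**Figure D2:**
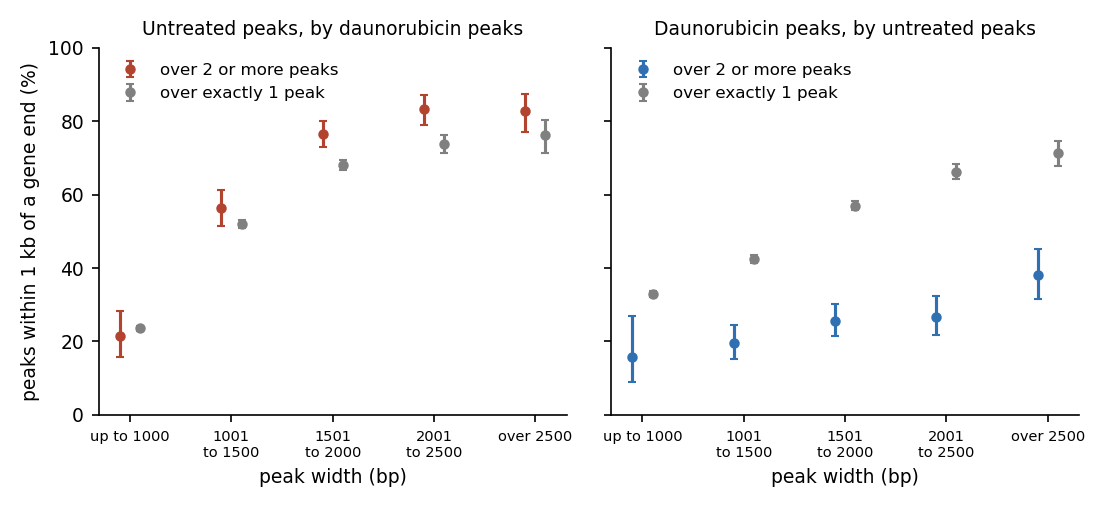
Share of peaks within 1 kb of a gene end (y axis, %) by peak width (x axis, bp), for untreated peaks (left) and daunorubicin peaks (right), with peaks over 2 or more peaks of the other list in colour, those over exactly 1 in grey and 95% Wilson intervals as bars. Split peaks stand above the grey points from 1501 to 2500 bp, at 76.6% and 83.4%, while bridging peaks stand below theirs at each width.

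Most gaps in split peaks held no listed gene start, yet more of them did than in bridging peaks. Starts were those of the RefSeq promoter table, which held 35116 starts of 27305 genes and covered 79.0% of the protein-coding genes, 84.4% of those with an end at a split peak and 80.1% of those at a bridging peak. A start lay in 440 of the 1704 gaps of split peaks (25.8%, 23.8 to 28.0) and in 52 of the 1222 gaps of bridging peaks (4.26%, 3.26 to 5.54). Gaps took 18.4% of the length of split peaks but held 543 of their 1440 starts (37.7%), or 10.1 starts per 10 kb inside gaps and 3.75 outside them. By the rule a gap never reaches the outer edge of its peak, while the stretch outside gaps includes the edges. The part of this in the difference was not tested. The density went with gap width: 13.1 starts per 10 kb in gaps up to 304 bp, 9.97 in those of 305 to 400 bp, and 2.89 in wider ones, which is below the density outside gaps. The share of gaps with a start was alike in the first 2 classes, 27.5% (24.99 to 30.2) and 27.7% (23.5 to 32.4). It was 12.8% (8.89 to 18.1) in the wider gaps. Of the 874 split peaks that held a start, 440 (50.3%, 47.0 to 53.6) had one in a gap. Among the 158 bridging peaks that held a start it was 52 (32.9%, 26.1 to 40.6), a smaller contrast than that over all gaps. A start was held by 52.9% of split peaks and by 13.3% of bridging peaks. In bridging peaks the density was 1.04 starts per 10 kb inside gaps and 1.02 outside, with 2.09 in gaps of 305 to 400 bp and 0.419 in wider ones.

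The position relative to the start was one-sided. In 665 gaps of split peaks (39.0%, 36.7 to 41.4) the centre lay within 250 bp of a start, with a median 112 bp upstream, and 89.0% (86.4 to 91.2) of these centres were upstream. Among bridging peaks 62 gaps (5.07%, 3.98 to 6.45) had a centre that close, and 62.9% (50.5 to 73.8) of them were upstream. The share of all gaps of split peaks reached 17.7% in the 100 bp that end 100 bp before the start and was 3.11% in the first 100 bp after it.

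**Figure D3:**
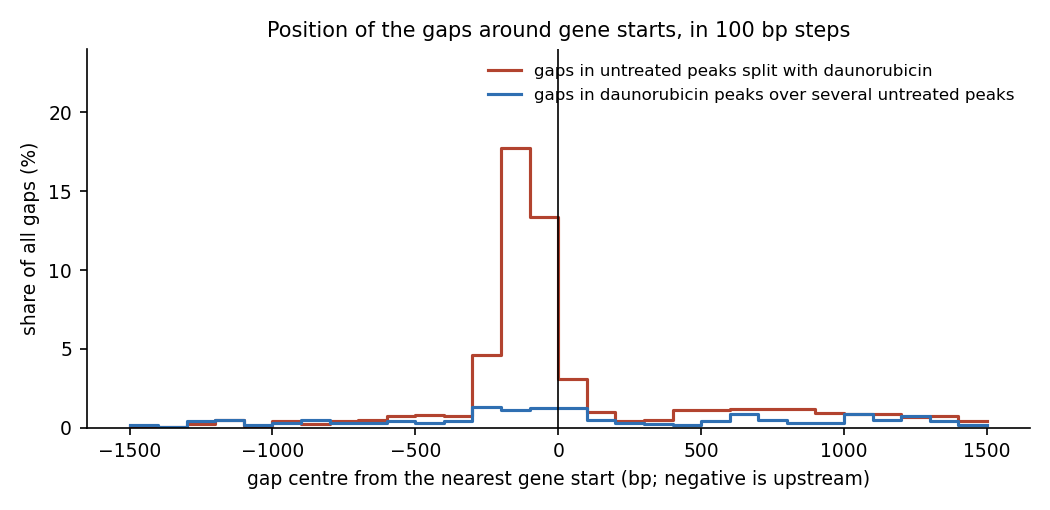
Distance of each gap's centre from the nearest gene start (x axis, bp, negative upstream, in 100 bp steps) against the share of all gaps (y axis, %), for split untreated peaks and for daunorubicin peaks over several untreated peaks. The gaps of split peaks pile up in the 300 bp before the start, and those of bridging peaks show only a low rise there.

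Gaps of the same width class were then compared within each list. Of the 3392 gaps up to 304 bp wide between neighbouring daunorubicin peaks, 1119 were spanned by 1 untreated peak, and 27.5% (24.99 to 30.2) of these held a start, against 4.88% (4.07 to 5.85) of the 2273 others. Between 305 and 500 bp the shares were 24.5% (20.8 to 28.5) of 478 spanned and 10.9% (9.80 to 12.2) of 2644 other gaps. The untreated list showed the opposite order: of its gaps between 305 and 500 bp, 5.01% (3.77 to 6.64) of the 898 that a daunorubicin peak spanned held a start, against 17.7% (15.6 to 19.9) of the 1222 others. In these width classes, gaps that opened under an untreated peak were thus more often at starts than other gaps. Gaps closed under a daunorubicin peak were less often at starts. The untreated list has no gap below 305 bp, so in the class up to 304 bp it could not show a gap of like width. The part of this limit in the contrast was not tested. The others include gaps between peaks that had no counterpart in the other list.

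In split peaks the pieces on either side of such a start had like median widths and different median scores. For the 374 gaps with starts on 1 strand only, the upstream piece had a median width of 775 bp and the downstream piece 780 bp, while the median scores were 126 and 96.5. The downstream piece had the higher score in 40.1% (35.3 to 45.2). The 48 such gaps of bridging peaks showed the same order of scores, with medians of 92.5 upstream and 43.5 downstream, and the downstream piece higher in 39.6% (27.02 to 53.7). Starts on both strands, as at a promoter that fires in both directions, lay in 66 of the 440 gaps (15.0%).

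The promoter windows of these starts were rich in the CCAAT box, the site of the factor NF-Y. Motifs were searched on both strands as plain letters, so a match is only a match of letters, and none of the motifs named here contains another. CCAAT was in the window of 302 of 543 starts that lay in a gap of a split peak (55.6%, 51.4 to 59.7), of 44.6% (41.4 to 47.9) of 897 starts in split peaks outside the gaps, of 32.1% (31.3 to 33.0) of 11603 starts in unsplit untreated peaks and of 34.6% of all 35116 starts. In untreated peaks over 1500 bp the shares were 54.3% (49.6 to 58.9), 43.2% (39.7 to 46.8) and 31.8% (30.6 to 33.1). Among the 163 starts in gaps of at least 305 bp it was 55.8% (48.2 to 63.2). In bridging peaks 34.8% (28.9 to 41.2) of 227 starts had the motif, and 39.0% (27.6 to 51.7) of the 59 in a gap.

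**Figure D4:**
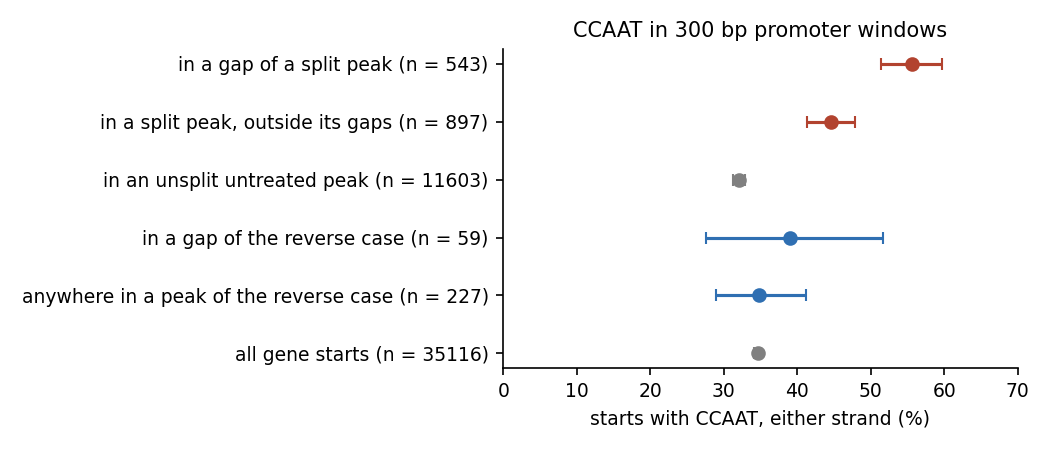
Share of gene starts whose 300 bp promoter window holds CCAAT on either strand (x axis, %), by where the start lies (y axis), with 95% Wilson intervals as bars. Starts in gaps of split peaks are highest at 55.6%, and starts in bridging peaks stand near the share of all starts, 34.6%.

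In the windows of starts in gaps, 94.1% (91.9 to 95.8) of the CCAAT matches lay in the gap, which held 79.9% of the window bases, so the density was 4.06 matches per kb inside the gap and 1.01 outside it. Matches of the GC box GGGCGG (89.4%, 87.5 to 91.0) and of the NRF1 core TGCGCA (91.1%, 85.1 to 94.8) also lay in the gap more often than its share of bases, so this was not a trait of CCAAT alone. CCAAT boxes generally lie shortly upstream of a start, where these gaps also lie, and neighbouring starts share window bases. In the printed windows, HSPA5, whose endoplasmic reticulum stress elements each begin with a CCAAT box, had 5 matches, all in the gap. KLF6 had 2, both in the gap, and JUN, BTG2 and PPM1D 1 each, in the gap. NADK2 had 1 of its 2 matches in the gap, and NQO1 and LYL1 had none. HNRNPLL had 2 matches and NSD2 1, all in the gap.

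Between starts in gaps and starts in unsplit peaks, the other motifs differed by fewer percentage points than CCAAT, while the GC box differed more from all windows than CCAAT did. The GC box GGGCGG, a site of SP1, was in 79.4% (75.8 to 82.6) of windows of starts in gaps, 78.8% (76.0 to 81.4) in split peaks outside gaps, 72.9% (72.1 to 73.7) in unsplit peaks and 45.0% of all windows. The NRF1 core TGCGCA was in 21.5% (18.3 to 25.2), 15.3% (13.1 to 17.8), 14.3% (13.7 to 15.0) and 8.24% in the same order. For TGACG, the core site of CREB and ATF factors, the shares were 42.9% (38.8 to 47.1), 36.3% (33.3 to 39.5), 34.9% (34.0 to 35.8) and 24.6%. The ETS letters CCGGAAG were in 23.4% (20.0 to 27.1), 18.7% (16.3 to 21.4), 21.1% (20.4 to 21.9) and 10.3%, and the TATA letters TATAAA in 4.79% (3.29 to 6.92), 3.68% (2.63 to 5.12), 4.23% (3.88 to 4.61) and 11.5%. The AP-1 site TGACTCA and the GATA letters AGATAA had overlapping intervals in the first 3 classes. Median GC content of the windows was 66.0% for starts in gaps, 66.7% for starts in unsplit peaks and 58.7% over all starts. Base composition of the windows thus hardly differed between starts in gaps and starts in unsplit peaks.

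Of the 10 peaks with the most pieces, 6 had a gene end within 1 kb, 3 lay inside a gene and 1 outside genes. MAML3, a coactivator of Notch signalling, had an untreated peak of 4208 bp (chr4:140150360-140154567, score 90), the widest of its list, over 4 daunorubicin peaks with scores of 104, 70, 33 and 186 and gaps of 290, 230 and 246 bp, the last of which held its start. STAG2, a subunit of cohesin, had a peak of 3711 bp (chrX:123959369-123963079, score 178) over 3 with scores of 131, 284 and 116, and the 360 bp gap held a STAG2 start while the 245 bp gap held none. At KLHL21, an adaptor of a cullin ubiquitin ligase (chr1:6601408-6604501, score 227), the pieces scored 35, 42 and 355 and the 245 bp gap held the start. The peak over H2AC15 and H2BC15, a divergent pair of histone genes (chr6:27836527-27839831, score 221), had pieces of 90, 293 and 110, and both starts lay in its 274 bp gap. FURIN, a protease of the secretory path, TNRC6B of the microRNA silencing complex and SSBP3, a partner of LDB1, had 3 pieces with no start in any gap. The other peak over 4 pieces was intergenic, on chromosome 19.

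The widest gaps lay in peaks that scored low among the split peaks. The 10 widest, from 978 to 1388 bp, were led by EGFL7 (a secreted vascular factor, 1388 bp, peak score 67) and RAB26 (a small GTPase of vesicles, 1387 bp, score 94), and only 2 of the 10 held a listed start, at UGT8 and at the shared promoter of ATP5MK and PDCD11. At UGT8, which makes galactosylceramide, the 1002 bp gap lay between pieces scoring 22 and 45. At ATP5MK, a subunit of ATP synthase, and PDCD11, of ribosomal RNA processing, the 978 bp gap lay between pieces of 88 and 54. The RCC1 and SNHG3 peak (4163 bp, score 90) lay over pieces of 52 and 35 with 1119 bp between them. In all 10 the untreated score was below the 118 that was the median of split peaks. The median of the whole untreated list was lower, at 43.

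Most of the highest-scoring split peaks had 1 strong and 1 weak piece. SLC25A5, the mitochondrial ADP and ATP carrier, had the highest untreated score, 636, over pieces of 367 and 16 with a gap of 248 bp. Next came HNRNPH1, a splicing factor, with 558 over pieces of 320 and 367, a pair of like height. TRMT2A, a transfer RNA methyltransferase, had 523 over 384 and 16, DAZAP1, an RNA-binding protein, 505 over 74 and 278, and WDR43, of ribosome assembly, 494 over 71 and 242. RHEB, the activator of mTORC1, had 478 over 427 and 78, NDUFB4 of respiratory complex I 465 over 57 and 383, and NADK2 490 over 288 and 146. Of these 10 peaks only that of NADK2 had a listed start in its gap.

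The gene lists were read against the share of all protein-coding genes with an end at a peak. That share does not cover the list of nuclear and snoRNA host RNAs, whose genes are non-coding. Of 11706 protein-coding genes with an end at an untreated peak, 1258 (10.7%) had an end at a split peak, and of 12539 at a daunorubicin peak 236 (1.88%) had one at a bridging peak. All 252 genes of 14 lists were matched by symbol. With counts this small nothing is called particular to a list.

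Among early response and lineage genes the shares at split peaks were 22.2% and 23.5%, above the background of 10.7% but on small counts. Of 18 immediate early and AP-1 genes with an untreated peak, 4 were at a split peak: JUN, KLF6, IER5 and IER2. The JUN peak (chr1:58783060-58785057, score 312) lay over pieces of 172 and 254 with 328 bp between them, and the KLF6 peak (chr10:3783444-3786293, score 279) over 134 and 238 with 420 bp. IER5, induced by stress and radiation, had a gap of 348 bp between pieces of 141 and 139, and the start was in the gap. IER2 had a gap of 399 bp between pieces of 127 and 36, and no listed start lay in its peak. Of 17 erythroid and progenitor regulators with a peak, 4 were split: GATA1 and TAL1, core factors of the red cell programme, MYB, which keeps progenitors dividing, and LYL1. Gaps were 577 bp at GATA1 (score 36, pieces of 29 and 25), 247 bp at TAL1 (106, over 26 and 181), 689 bp at MYB (170, over 212 and 62) and 288 bp at LYL1 (98, over 53 and 128). Only the LYL1 gap held a listed start.

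**Figure D5:**
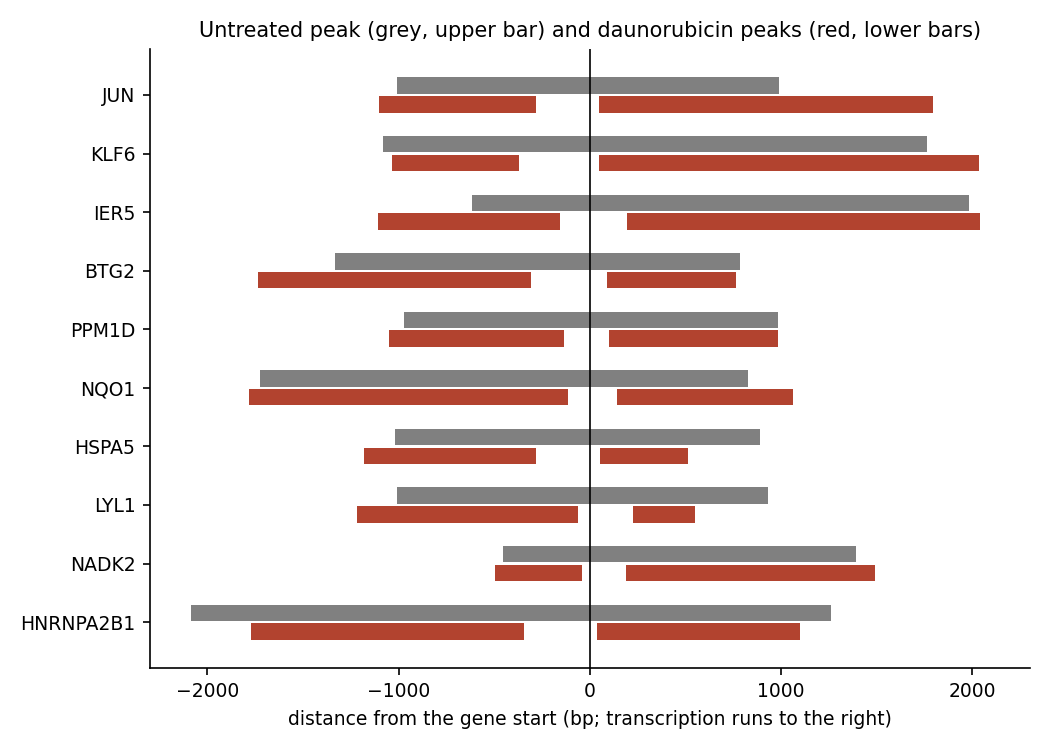
Untreated peaks (grey, upper bars) and daunorubicin peaks (red, lower bars) at 10 promoters whose gap holds the start, as distance from the gene start (x axis, bp, transcription to the right). Each gap spans the start because the promoters were chosen so. The gap reaches farther upstream than downstream in 6 of them, the exceptions being IER5, NQO1, LYL1 and NADK2.

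Genes of drug and damage response were near the background share. Of 16 p53 target genes with a peak, 2 (12.5%) were split, BTG2 and PPM1D, in a line that lacks functional p53. The BTG2 peak (score 189) lay over pieces of 124 and 65, and its 395 bp gap held the starts of BTG2 and of its divergent transcript. PPM1D (360) lay over pieces of 384 and 153 with 234 bp between them. Of 16 NRF2 pathway genes 2 were split: NQO1 (216, over 185 and 203, 255 bp apart) and SLC7A11, the cystine importer (114, over 109 and 148, 248 bp apart). Of 17 genes of topoisomerases and break repair 2 were split, PRKDC and XRCC5, which act in end joining. No ALDH1 gene was at a split peak, of 4 with an untreated peak.

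Among housekeeping groups, the genes of RNA polymerase II elongation had 7 of 20 at a split peak (35.0%). They were the P-TEFb cyclins CCNT1 and CCNT2, its inhibitor HEXIM1, the elongation factor ELL2, the pausing factor NELFE, PAF1 and the kinase CDK13. CCNT1 (score 267) lay over pieces of 170 and 311 with a gap of 272 bp, and CCNT2 (306) over 137 and 360 with 306 bp, where the start of its antisense transcript lay. ELL2 (197) lay over 175 and 69 with 328 bp, and HEXIM1 (63) over 24 and 65 with 290 bp. Splicing factors had 4 of 19 split (SRSF2, SRSF4, U2AF2 and HNRNPA2B1, which shares its peak with CBX3), and replication-dependent histones 4 of 19 (H2AC6, H2BC4, H4C2 and H4C5). H2AC6 and H2BC4 share 1 peak, whose gap of 838 bp is among the wider ones.

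The remaining lists gave small counts. Nuclear and snoRNA host RNAs had 4 of 17 split (NEAT1, SNHG1, SNHG3 and GAS5), BCR-ABL1 signalling genes 3 of 16 (SOS1, SOCS2 and SHC1), heat shock chaperones 2 of 15 (HSPA5 and HSPB1) and histone acetylation genes 2 of 19 (HDAC4 and SIRT1). The SNHG1 gap of 269 bp held the starts of SNHG1 and of SLC3A2, which run in opposite directions. At HSPA5 (score 308) the pieces scored 105 and 217 with a gap of 331 bp. HDAC4 (365) had pieces of 53 and 403, and SIRT1 (192) pieces of 175 and 27.

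The bridging peaks with the widest gaps and highest scores were at varied genes. The widest gap closed was 1789 bp at BLVRA, biliverdin reductase, where 1 daunorubicin peak (chr7:43756090-43759312, score 99) lay over untreated peaks of 29 and 244. PDZK1IP1, next to TAL1, had a closed gap of 1637 bp, and 2 other gaps among the widest 5 were intergenic. PIK3CB, a catalytic subunit of PI3 kinase, had 3 untreated peaks scoring 66, 50 and 175 under 1 daunorubicin peak of 112. The highest-scoring were at MED15 of the Mediator complex (428, over 650 and 27) and SIRT4, a mitochondrial sirtuin (385, over 436 and 129). Of the 14 lists, 6 had a member at a bridging peak, with at most 2 each, among them FOS and JUN.

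A host is the gene whose end lies nearest the peak centre, among genes with an end within 1 kb of the peak. Failing that, it is the smallest gene the peak overlaps. In both steps protein-coding genes were taken before any others, which can only raise the protein-coding counts. Split peaks had 1462 hosts, 1273 of them protein-coding, and bridging peaks 848, 667 of them protein-coding. Both kinds were hosted by 123 genes, 8.41% of the first set and 14.5% of the second. As a background, 10.7% of protein-coding genes with an end at an untreated peak had one at a split peak. Of those with an end at a daunorubicin peak, 1.88% had one at a bridging peak. Hosts also include non-coding genes and genes with a peak only in their body, so these shares are not like for like. Whether the overlap of hosts goes beyond a background was not tested. MBNL2 and MSI2, RNA-binding regulators of splicing and translation, had 3 split peaks each. Bridging peaks fell 3 times each in AFF1, BACH2, CLEC16A, DLGAP1, MYO3B, SMYD3, TANC1 and TBC1D19.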

How the data were processed

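Each of the 4 libraries had a headerless list of peaks deposited by the authors, with a score beside each peak. How that score was formed is not stated. Per the submitters' processing notes, the software was MACS2 2.1.1, Bowtie2 2.3.4.3 and deepTools 3.2.1, and hg19 and hg38 as builds. The lists carry sequence names of hg38. Peak settings, depth and any use of the inputs are not stated. Positions are counted from 1.

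Overlaps of at least 1 bp were found in Python 3.11.15 with pandas 2.3.3, and bedtools 2.31.1 gave the same 1653 split and 1185 bridging peaks. The overlap script was tested on 20000 simulated peaks. Genes and promoter windows came from RefSeq tables of GRCh38.p14. Members and gene lists were chosen with earlier results of these data known. The named genes are the hosts of the 10 split peaks with most pieces, widest gap or highest score, of 5 bridging peaks by each, and up to 4 members of each list at a split peak by unmarked length, together with others marked as picked or counted. CDK13, PAF1 and NELFE were named to complete a count, after their values were seen. No replicates exist, so the only error given is a 95% Wilson interval of counting. The count of 1 list is not reported here. A set of 10 planned and 2 added alternatives was computed.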

Additional observations from a re-analysis of the deposited data

How the results depend on the processing

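No paired analysis was possible because each condition had 1 library, and for the same reason no replicate could be left out. In all 12 alternatives the gene-end share was higher for split than for bridging peaks, and the share of gaps with a gene start was higher in split peaks in the 11 that bear on it. A score of at least 43, the untreated median, was required in both lists, whose scores may not share a scale. It left 847 split and 164 bridging peaks, a ratio of shares of 8.40. Median gaps were 273 and 386 bp, gene-end shares 85.8% and 49.4%, and 38.9% of split-peak gaps held a start. Before this cut the lower untreated piece of bridging peaks had a median score of 23, which is below it. With equal numbers of the highest-scoring peaks there were 1064 split peaks, the ratio turned to 0.969, and the gene-end and gap-start shares of split peaks were 78.9% and 35.0%. Pieces at least 50% inside gave 76.3% and 30.7%. Joining at 500 bp gave 220 and 701 peaks, a ratio of 0.504, gaps of 635 and 658 bp, gene-end shares of 62.3% and 29.5% and 21.5% of gaps with a start. Requiring a gap of 500 bp gave 105 and 321 peaks, 0.551, 635 and 617 bp, 63.8% and 17.4%, and 13.9%. Gene ends within 2.5 kb gave 72.2% and 33.1%, and protein-coding genes 59.5%, 16.8% and, for gaps with a start, 22.7%. Joining at 304 bp, added after seeing the data, gave 578 split peaks, 0.596, 358 bp, 64.7%, 30.8% and 22.6%, and with equal numbers as well 340 peaks, 0.242, 348 bp, 75.9%, 32.1% and 32.9%. Joining at 200 bp changed nothing, since no gap is that narrow. Joining at 304 bp took the split peaks from 1653 to 578 and the bridging peaks from 1185 to 1550. The cause of the turn of the ratio was not tested, whether under joining, a minimum gap or equal numbers. The CCAAT share of starts in split-peak gaps ran from 51.5% to 56.4% except with gaps of at least 500 bp, where it was 33.3% of 21 starts. Depth is unknown, so gaps cannot be told from stretches with too few reads to be called.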

Other observations

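Split peaks occurred on every chromosome from 1 to 22 and X. Their share of untreated peaks ran from 3.15% on chromosome 8 to 6.25% on chromosome 19, and that of bridging peaks from 1.13% on chromosome 15 to 2.36% on chromosome 3. In 69 split peaks (4.17%, 3.31 to 5.25) a piece was itself a bridging peak, so that the boundaries of the lists were offset there. JUN, SHC1, XRCC5 and H4C5 had an end within 1 kb of a peak of each kind.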
